A study of Mus musculus with 6 samples.

Results

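The CC chemokine ligands described here are 7 mouse genes, Ccl1, Ccl2, Ccl7, Ccl3, Ccl4, Ccl20 and Ccl27a, of the 36528 genes listed in the deposited files. They were chosen by name with their counts in DT and saline libraries already known, so their difference between the groups is given as a description and is not tested. The 6 libraries come from mouse skin cells sorted by flow cytometry for CD49f (integrin alpha 6) and CD34 and against GFP, a gate for hair follicle stem cells of the bulge. All donor mice carried Lgr5-DTReGFP, in which the Lgr5 locus drives the diphtheria toxin (DT) receptor and a green reporter. The DT group (3 libraries) came from such mice given DT, which kills cells that bear the receptor, and the saline group (3 libraries) from such mice given saline (labelled NaCl). No library came from mice without the receptor that were given DT, and dose, time after DT and the age of the mice are not given in the labels. The comparison addresses how CD34+ stem cells outside the reporter-positive population differ after DT was given. Whether each library is a separate mouse is not stated, so the errors and p-values below reflect library-to-library spread, which may be technical. The GFP-negative gate depends on the reporter at Lgr5.

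Chemokines are small secreted proteins that draw leukocytes along a gradient by binding receptors with 7 passes through the membrane. Those of the CC class carry a pair of adjacent cysteines near their start. In skin, keratinocytes, including those of the hair follicle, are known to release them. Ccl2 and Ccl7 bind Ccr2 and attract monocytes, Ccl1 binds Ccr8, Ccl20 binds Ccr6, and Ccl27a binds Ccr10 and attracts T cells that home to skin. Ccl3 and Ccl4 attract monocytes and T cells. Many CC chemokine genes are known to be induced through NF-kappaB.

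The sequences just upstream of Ccl1, Ccl20 and Ccl3 are shown because Ccl1 and Ccl20 were among the ligands that were high in DT libraries and Ccl3 was near 0 in both groups. Each is the 250 bases before the gene's start, read 5′ to 3′ on the gene's strand, from RefSeq on GRCm38.p6. The table held a start for 4 of the 7 genes. Ccl27a is not printed because its windows lie over exons of its own longer transcripts, and Ccl2, Ccl7 and Ccl4 had no entry. Capitals mark matches, on either strand, to the NF-kappaB consensus, to TGANTCA (the AP-1 site) or to TATAA.
Ccl1 (chr11:82179813-82180062, minus strand): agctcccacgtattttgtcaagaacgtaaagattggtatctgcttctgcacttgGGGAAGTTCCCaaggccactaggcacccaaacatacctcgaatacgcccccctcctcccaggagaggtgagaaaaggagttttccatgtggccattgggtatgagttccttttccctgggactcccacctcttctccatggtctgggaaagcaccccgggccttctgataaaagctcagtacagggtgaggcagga
Ccl20 (chr1:83116516-83116765, plus strand): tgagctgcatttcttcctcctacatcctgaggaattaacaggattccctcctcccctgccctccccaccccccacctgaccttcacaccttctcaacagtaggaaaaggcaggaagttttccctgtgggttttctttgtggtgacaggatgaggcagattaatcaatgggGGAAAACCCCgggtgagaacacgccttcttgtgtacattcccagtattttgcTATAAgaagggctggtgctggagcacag
Ccl3 (chr11:83649379-83649628, minus strand): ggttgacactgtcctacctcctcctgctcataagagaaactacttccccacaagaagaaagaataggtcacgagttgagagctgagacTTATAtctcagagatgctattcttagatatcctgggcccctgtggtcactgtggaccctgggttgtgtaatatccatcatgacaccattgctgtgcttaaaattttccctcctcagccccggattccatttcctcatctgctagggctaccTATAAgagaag
In the Ccl1 window the NF-kappaB consensus lay at bases -196 to -187 on the gene's strand and, overlapping it, at -195 to -186 on the opposite strand. In the Ccl20 window it lay at -80 to -71 on the strand opposite the gene's, and TATAA at -28 to -24 on the gene's strand. The Ccl3 window held TATAA at -11 to -7 and, on the other strand, at -162 to -158, and no match to the NF-kappaB consensus. Of all 32851 windows of the same length in the RefSeq table, 7.25% held the NF-kappaB consensus, 6.75% TGANTCA and 22.8% TATAA. The motifs were picked with these sequences in view, and a match in a window is a description of its letters only.

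The sorted libraries held 15300755 to 25558859 reads in genes. Cd34 stood at 1882 to 2604 CPM (counts relative to library size, after TMM scaling between libraries) in DT libraries and at 2404 to 3085 CPM in saline libraries, and the bulge keratin Krt15 at 23918 to 42909 CPM in DT libraries and 28112 to 41263 CPM in saline libraries. Lgr5, the locus that carries the receptor, was at 6.98 to 7.26 CPM in DT libraries and 17.3 to 31.6 CPM in saline libraries. In bulk libraries fewer cells of a type and less RNA per cell cannot be told apart.

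The monocyte attractants Ccl2 and Ccl7 were far higher after DT. Ccl2 (Entrez 20296, chromosome 11 from 82035577 to 82037452, plus strand, 3 exons) had 138, 180.0 and 203 CPM in DT libraries 1 to 3 and 1.95, 1.66 and 5.16 CPM in saline libraries 1 to 3. The lowest DT library thus lay well above the highest saline library, which was saline library 3. The fitted difference was 59.1-fold (log2 fold change 5.89, SE 0.39), or 6.58 on the log2 scale without saline library 3. Ccl7 (Entrez 20306, chromosome 11 from 82045712 to 82047525, plus strand, 3 exons) had 31.5, 44.0 and 47.1 CPM in DT libraries 1 to 3 and 1.53, 0.739 and 2.17 CPM in saline libraries 1 to 3. Its groups did not overlap either, and it was 27.4-fold higher (log2 4.77, SE 0.34). In both genes DT library 1 was the lowest of the DT libraries and saline library 3 the highest of the saline libraries.

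Ccl1 and Ccl20, ligands of receptors found mainly on lymphocytes and dendritic cells, were far higher in DT libraries as well. Ccl1 (Entrez 20290, chromosome 11 from 82176666 to 82179812, minus strand, 3 exons) had 46.2, 33.7 and 33.6 CPM in DT libraries 1 to 3 and 0.787, 0.878 and 0.390 CPM in saline libraries 1 to 3. Here DT library 1 was the highest of its group and saline library 3 the lowest, the reverse of Ccl2 and Ccl7. The groups did not overlap, and the fitted difference was 54.9-fold (log2 5.78, SE 0.31). Ccl20 (Entrez 20297, chromosome 1 from 83116766 to 83119167, plus strand, 3 to 4 exons by transcript) had 27.9, 17.1 and 36.4 CPM in DT libraries 1 to 3. In saline libraries it had 0 counts in library 1, which allows up to 0.124 CPM (3 counts, counting error only), and 0.462 and 0.694 CPM in libraries 2 and 3. It was 70.5-fold higher in DT (log2 6.14, SE 0.62), with the widest error of the 5 ligands fitted. Leaving out saline library 1 gave 5.52 on the log2 scale, and leaving out saline library 3 gave 6.91.

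Ccl27a, the keratinocyte ligand for skin-homing T cells, did not follow them. It (Entrez 20301, chromosome 4 from 41769467 to 41774225, minus strand, 3 to 6 exons by transcript) had 7.26, 4.56 and 6.26 CPM in DT libraries 1 to 3 and 6.04, 5.08 and 6.51 CPM in saline libraries 1 to 3. The groups overlapped, and the log2 fold change was 0.04 (SE 0.27), with a 95% interval of 0.679-fold to 1.56-fold, and its sign turned with scaling by library size only (-0.06). In the GENCODE annotation the gene shares 8 of its 1547 exon bases with Il11ra1, a receptor subunit for interleukin 11, on the other strand (the RefSeq spans, whose ends are given above, share 7 bases), and the strand setting of the counting is not given in the sources used here. Il11ra1 itself averaged 93.9 ± 31.1 CPM in DT libraries and 99.6 ± 9.54 CPM in saline libraries (SD, n = 3 each). The near-identical copies Ccl27b and Il11ra2 had no read in any library. Since only uniquely aligned reads were counted, reads that fit both copies are in neither count.

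Ccl3 and Ccl4, made mainly by activated leukocytes, were at the limit of detection and too low to be fitted. Ccl3 (Entrez 20302, chromosome 11 from 83647843 to 83649378, minus strand, 3 exons) had 7 counts in DT library 2 and 0 in DT libraries 1 and 3, and 0 in all 3 saline libraries. A count of 0 allows up to 0.141 CPM in DT library 1 and 0.120 CPM in DT library 3. Ccl4 (Entrez 20303, chromosome 11 from 83648624 to 83664683, plus strand, 3 exons) had 4, 6 and 0 counts in DT libraries 1 to 3 and 0, 2 and 0 in saline libraries 1 to 3. With summed counts of 10 in DT and 2 in saline, the ratio after scaling for library size was 5.61, with an exact binomial 95% interval for counting error of 1.20 to 52.7. The RefSeq spans of Ccl3 and Ccl4 overlap by 755 bases. In the GENCODE annotation, from which the exon counts come, no overlap of these genes was found. The annotation used for counting reads is not given, so whether any read could belong to either gene is not known.

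Of the 5 ligands fitted, Ccl1, Ccl2, Ccl7 and Ccl20 passed the edgeR test in the direction of higher levels in DT, where 17.2% of the 15132 genes tested did (29.0% passed in either direction), and Ccl27a did not pass. Over all genes 2600 were called higher and 1795 lower in DT, and scaling by library size only turned that balance, to 2099 higher and 2317 lower. All 3 DT libraries lay above all 3 saline libraries for the same 4 genes, and for 25.4% of all genes tested (45.9% had no overlap in either direction). The 7 genes were chosen on this contrast, and Ccl1 and Ccl20 passed the filter on low counts only through the DT libraries, so these counts carry no weight of their own. The submitters' sample identifiers form 2 number series, the larger holding DT libraries 1 and 2 with saline libraries 1 and 2 and the smaller DT library 3 with saline library 3. Ccl2 was 88.0-fold higher in DT within the larger series and 39.3-fold within the smaller, Ccl7 33.3-fold and 21.7-fold, and Ccl20 97.4-fold and 52.4-fold. Ccl1 ran the other way, at 48.0-fold within the larger series and 86.0-fold within the smaller. Ccl27a was at 1.06-fold and 0.962-fold.

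**Figure D1:**
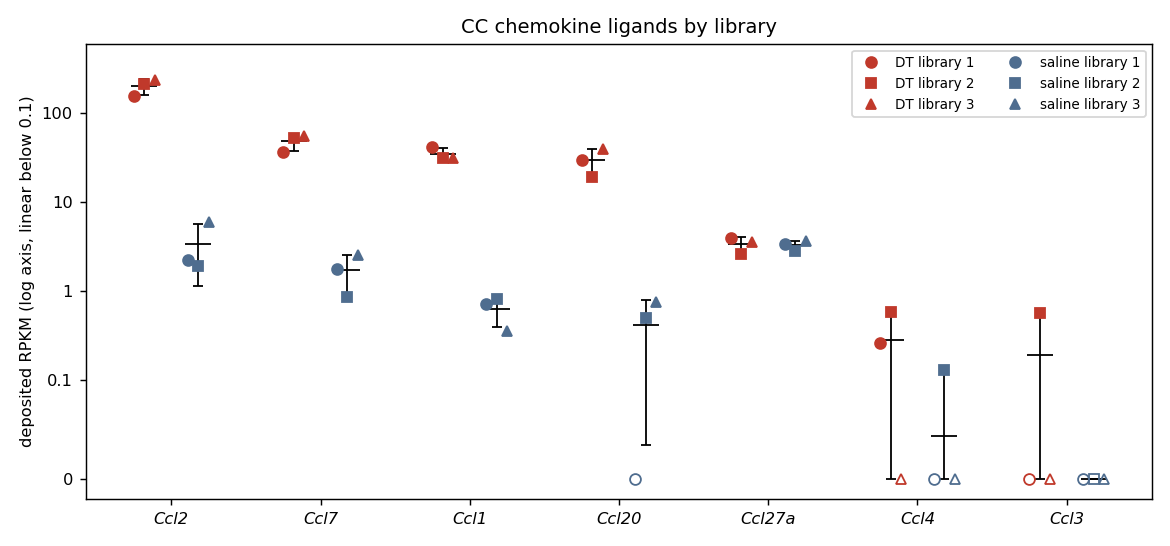
Deposited RPKM of each CC chemokine ligand by library (y axis, log scale, linear below 0.1), DT libraries left of saline libraries, with bars at the mean and SD of 3 libraries and open symbols for 0. Ccl2, Ccl7, Ccl1 and Ccl20 lie apart between the groups, Ccl27a overlaps at 2.60 to 3.99 RPKM in DT libraries and 2.84 to 3.66 RPKM in saline libraries, and Ccl4 and Ccl3 are at or near 0.

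Levels of different genes were compared on the deposited RPKM, which divides by gene length. In DT libraries Ccl2 was the most abundant ligand of the 7, at 203 ± 41.4 RPKM (SD, n = 3), rank 311 of the 36528 genes. Ccl7 followed at 48.2 ± 10.4 RPKM, Ccl1 at 34.9 ± 6.0 RPKM and Ccl20 at 29.5 ± 10.4 RPKM. The ranges of Ccl7 and Ccl1, and those of Ccl1 and Ccl20, overlapped, while those of Ccl2 and Ccl7 did not. Ccl27a, at 3.37 ± 0.705 RPKM, lay below Ccl20 and above Ccl4 with no overlap on either side. Reads that fit both Ccl27a and its copy Ccl27b were not counted, so its level, rank and share of reads may be too low. Ccl4 (0.282 ± 0.293 RPKM) and Ccl3 (0.190 ± 0.329 RPKM) came last and overlapped.

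In saline libraries the order was another. Ccl2, at 3.42 ± 2.28 RPKM (SD, n = 3), and Ccl27a, at 3.29 ± 0.414 RPKM, overlapped at the top, and Ccl2 led only through saline library 3. Ccl7 came next at 1.74 ± 0.845 RPKM, then Ccl1 at 0.632 ± 0.238 RPKM and Ccl20 at 0.420 ± 0.385 RPKM, whose ranges overlapped. Ccl2 thus ranked 8622 of all genes in saline cells and Ccl27a 8737, and in DT cells Ccl27a ranked 8617.

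The ligands also differed in how they moved against each other within a library, a measure that does not depend on scaling between libraries. The RPKM of Ccl2 was 4.34, 4.07 and 4.28 times that of its neighbour Ccl7 in DT libraries 1 to 3, and 1.26, 2.24 and 2.37 times in saline libraries 1 to 3. The ratio was nearly constant among DT libraries and lower in every saline library. The saline ratios rest on few reads, with 47, 36 and 119 counts of Ccl2 and 37, 16 and 50 of Ccl7 in saline libraries 1 to 3. In DT libraries 1 to 3 there were 2941, 2684 and 5084 counts of Ccl2 and 673, 656 and 1180 of Ccl7. The ratio of Ccl2 to Ccl1 was 3.77, 6.76 and 7.63 in DT libraries 1 to 3 and 3.13, 2.40 and 16.7 in saline libraries 1 to 3, so that groups overlapped. The ratio of Ccl2 to Ccl20 was 5.29, 11.3 and 5.98 in DT libraries 1 to 3, and 3.86 and 7.97 in saline libraries 2 and 3.

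All reads of CC ligands together, the 7 genes and 17 others, came to 5435, 4261 and 8322 in DT libraries 1 to 3 and to 463, 252 and 491 in saline libraries 1 to 3. Ccl1, Ccl2, Ccl7 and Ccl20 made up 95.6%, 96.2% and 96.3% of them in DT libraries and 22.2%, 32.1% and 39.5% in saline libraries. Ccl27a made up 1.60% to 2.85% in DT libraries and 30.5% to 43.7% in saline libraries. Ccl1 took 18.2% in DT library 1, against 11.8% and 10.1% in DT libraries 2 and 3.

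**Figure D2:**
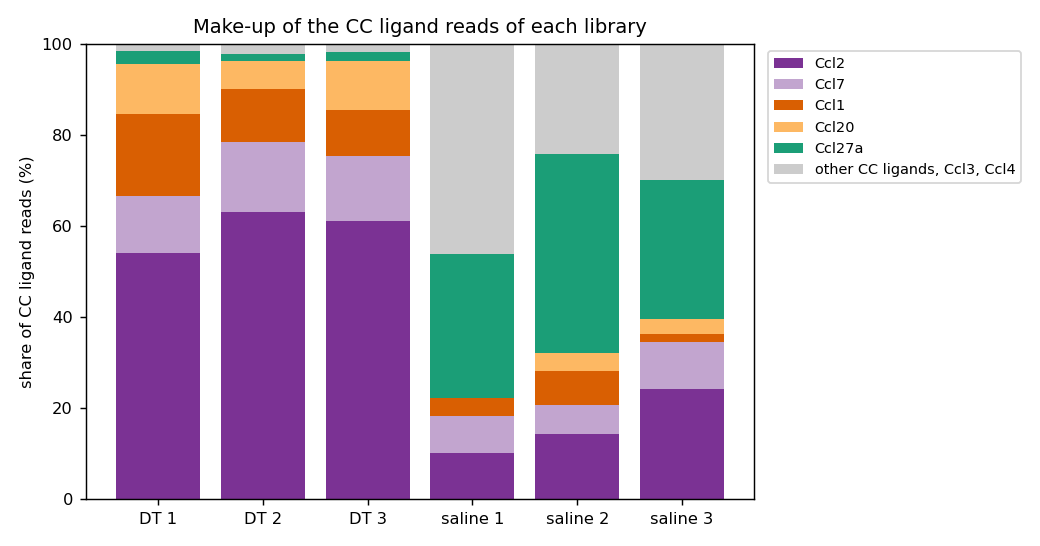
Share of the CC ligand reads of each library taken by each ligand (y axis, percent), DT libraries left and saline libraries right, with the remaining ligands in grey. Ccl2 holds 54.1% to 63.0% in DT libraries and 10.2% to 24.2% in saline libraries, where Ccl27a is the broadest named band.

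Ccl2, Ccl7 and Ccl1 lie in 1 cluster on chromosome 11, from 82035577 to 82179812 on GRCm38, with Ccl11, Ccl12 and Ccl8 between them. Ccl11, a ligand that attracts eosinophils and starts 22.3 kb from the start of Ccl2, had 2 reads in all 6 libraries together. Ccl12, at 66.3 kb, had none, and Ccl8, at 79.6 kb, had 6. Of the 6 genes of the cluster, those at its ends were thus high in DT and those in its middle were at or near 0. The nearest genes outside the cluster that could be tested were looked at after its values were seen. On the side of Ccl2, Tmem98 (start 80810366) rose by 1.46 (SE 0.21, edgeR adjusted p = 0.000985) and Myo1d (start 80482126) by 0.85 (SE 0.18, adjusted p = 0.00723) in log2 fold change. On the side of Ccl1, Cct6b (start 82713112) stood at 0.25 and Zfp830 (start 82764345) at -0.02 (adjusted p = 0.726 and 0.904). The flanks of Ccl20 on chromosome 1 were Agfg1, at 0.29 (adjusted p = 0.237), and Sphkap, which fell with a log2 fold change of -1.31 (SE 0.27, edgeR adjusted p = 0.00661). A second cluster on chromosome 11, from 83525778 to 83664683, holds Ccl5, Ccl9, Ccl6, Ccl3 and Ccl4, and none of its ligands averaged 1 CPM in DT libraries.

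**Figure D3:**
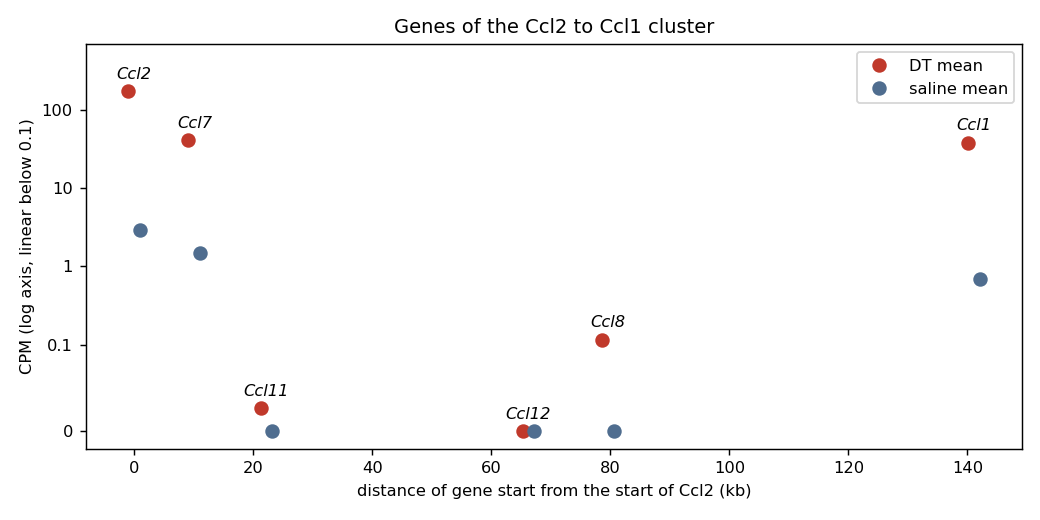
Mean CPM of 3 libraries (y axis, log scale, linear below 0.1) of each gene between Ccl2 and Ccl1 against the distance of its start from that of Ccl2 in kb, DT in red and saline in blue, set slightly apart sideways so that both show. Ccl2, Ccl7 and Ccl1 stand at 174, 40.9 and 37.8 CPM in DT, while Ccl11, Ccl12 and Ccl8 lie between 0 and 0.114 CPM.

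The 17 other CC ligands looked at had counts mostly at or near 0. Of them 7 had no read in any library (Ccl12, Ccl19, Ccl21a, Ccl21b, Ccl21c, Ccl26 and Ccl27b), and 3 had enough reads to be tested. Only uniquely aligned reads were counted, so reads that fit more than 1 copy of a gene are in no count. For genes with close copies, such as Ccl27b and the Ccl21 genes, a count of 0 thus does not show absence. Ccl5, which attracts T cells, rose (0.609, 0.671 and 1.32 CPM in DT libraries 1 to 3, against 0.124, 0.139 and 0.304 CPM in saline libraries 1 to 3; log2 2.18, SE 0.69, edgeR adjusted p = 0.0382). Ccl5 passed the filter on low counts only through the DT libraries, where it is high. Its call was lost with no filter (edgeR adjusted p = 0.0895) and without any 1 of the 6 libraries (adjusted p = 0.0527 to 0.238). Ccl25, a ligand of Ccr9 and of the scavenger Ackr4, averaged 2.93 ± 1.16 CPM in DT and 3.37 ± 1.47 CPM in saline (SD, n = 3 each) and did not pass, nor did Ccl28 (log2 1.08, SE 0.98). None of the 3 fell by edgeR, DESeq2 or limma-voom, and none had an unadjusted p under 0.05 in that direction. Ccl6 reached the filter's level in too few libraries to be tested. It had 0.141, 0.067 and 0 CPM in DT libraries 1 to 3 and 1.61, 0 and 1.95 CPM in saline libraries 1 to 3.

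In the sorted cells, the Ccr receptors named here for the ligands that were high in DT had at most 44 counts in any library. Ccr2, the receptor of Ccl2 and Ccl7, had 0, 1 and 1 counts in DT libraries 1 to 3 and 30, 0 and 44 in saline libraries 1 to 3. Ccr8, the receptor of Ccl1, had 1, 4 and 4 counts in DT libraries 1 to 3 and 0, 0 and 2 in saline libraries 1 to 3. Ccr6, the receptor of Ccl20, was seen with 5 counts in DT library 3 alone. Ccr10, the receptor of Ccl27a, had at most 5 counts in a DT library and 11 in a saline library, and Ccr1 and Ccr3 had none. None of these receptors passed the filter on low counts of the main fit, so none was tested in it. Ccr2, with 30 and 44 counts in saline libraries 1 and 3, reached the filter's level in too few libraries.

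Of 15 receptor genes 6 were tested, of which 0 rose (17.2% of all genes did) and Ccr4 fell (11.9% of all genes did). The median log2 fold change of the 6 was -0.25, beside -0.01 for all genes tested. In the direction of higher levels in DT, 1 receptor, Ccrl2, had an unadjusted edgeR p under 0.05, and 0 passed by DESeq2 and 1 by limma-voom. Ccr4, a receptor of Ccl17 and Ccl22 known from T cells, was at 1.17, 1.54 and 1.64 CPM in DT libraries 1 to 3 and 3.23, 6.29 and 6.16 CPM in saline libraries 1 to 3 (log2 -1.85, SE 0.37, edgeR adjusted p = 0.0057). Ccrl2, an atypical receptor that binds chemerin, was at 11.1, 6.51 and 14.5 CPM in DT libraries 1 to 3 and 0.124, 3.42 and 4.81 CPM in saline libraries 1 to 3. Its groups did not overlap, and it came through the filter on low counts only by its DT libraries. It did not pass the test (log2 1.95, SE 0.75, adjusted p = 0.0776), and it passed without saline library 1 (log2 1.36, adjusted p = 0.0237) and with limma-voom (adjusted p = 0.0334). Ackr4, a scavenger of Ccl19, Ccl21 and Ccl25, was the only abundant receptor, at 377 ± 29.5 CPM in DT and 472 ± 46.3 CPM in saline (SD, n = 3 each; log2 -0.32, SE 0.13, adjusted p = 0.0862). On the length-scaled RPKM it stood at 102 ± 6.58 in DT and 127 ± 12.7 in saline, below Ccl2 in DT and above all 7 ligands in saline. Ackr1 averaged 2.17 CPM in DT and 2.44 CPM in saline, and Ackr2 1.17 CPM in DT and 1.83 CPM in saline. Neither passed (edgeR adjusted p = 0.847 and 0.636).

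**Figure D4:**
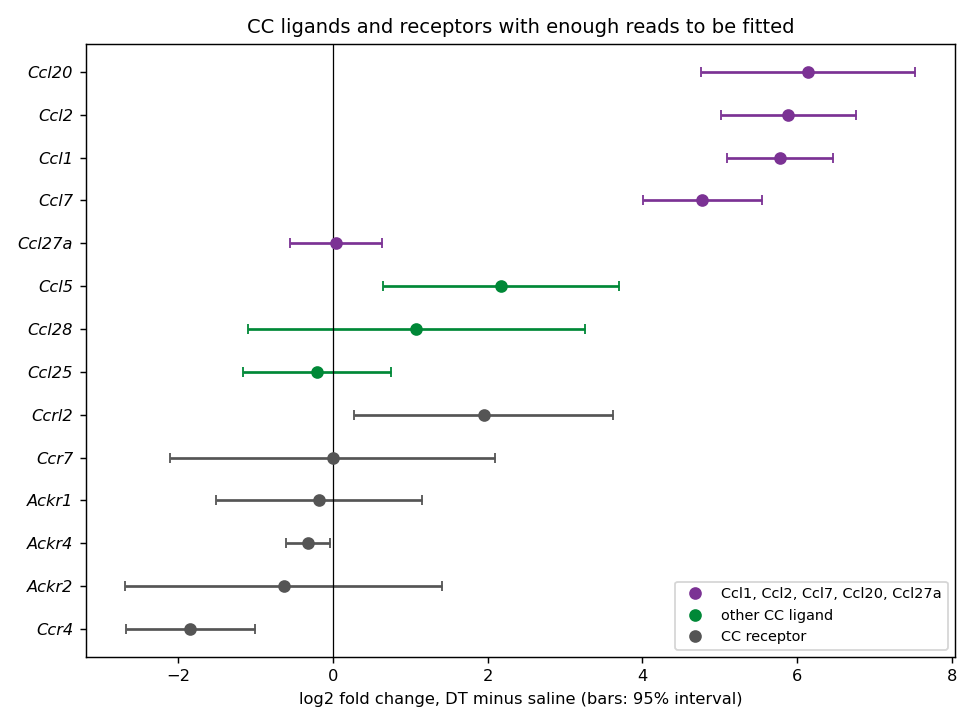
Log2 fold change, DT minus saline (x axis), of every CC ligand and receptor with enough reads to be fitted, with 95% intervals of the edgeR fit on 6 libraries. Ccl20, Ccl2, Ccl1 and Ccl7 lie between 4.77 and 6.14, Ccl27a is near 0, and the receptors lie between -1.85 and 1.95.

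Among 23 genes that are known to drive or limit the transcription and stability of chemokine mRNA, 22 were tested, of which 10 rose and 1 fell (17.2% and 11.9% of all genes), with a median log2 fold change of 0.93 beside -0.01 for all genes. The NF-kappaB subunits Nfkb2 (43.1 ± 7.52 CPM in DT and 14.3 ± 1.37 CPM in saline; log2 1.59, SE 0.19, edgeR adjusted p = 0.000338), Rel (log2 1.80, SE 0.29, adjusted p = 0.00201) and Relb (log2 1.43, SE 0.20, adjusted p = 0.000912) rose. The subunits Rela (148 ± 28.6 CPM in DT and 156 ± 14.1 CPM in saline) and Nfkb1 (50.8 ± 1.41 CPM in DT and 54.0 ± 14.6 CPM in saline) did not pass. Tnfaip3, an inhibitor that NF-kappaB itself induces, rose by 1.52 (SE 0.21, adjusted p = 0.000957). Nfkbia (log2 0.40, SE 0.17, edgeR adjusted p = 0.0928) and Nfkbiz (log2 -0.54, SE 0.27, adjusted p = 0.161), of the same list, did not pass. Of the 22 genes tested, 11 were not called. Tnf, a cytokine that activates NF-kappaB, had 179 counts in the DT libraries together and 0 in the saline libraries, and was at least 67.0-fold higher against 3 counts over the saline group. Tnf passed the filter on low counts only through the DT libraries, so its place among the 10 carries no weight. Il1a (log2 1.07, SE 0.65, edgeR adjusted p = 0.239), which was not called, also passed that filter only through the DT libraries. The median of 0.93 includes both genes and carries no weight either.

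The factors of the AP-1 group Jun (log2 2.43, SE 0.24, edgeR adjusted p = 0.000151), Fosl1 (log2 3.36, SE 0.45, adjusted p = 0.000716), Atf3 (286 ± 41.3 CPM in DT and 26.2 ± 20.2 CPM in saline, log2 3.45, SE 0.45, adjusted p = 0.000588) and Fos rose as well. Junb, of the same group, did not pass (log2 0.79, SE 0.35, edgeR adjusted p = 0.121), and its DT and saline libraries overlapped. Fos was at 191, 303 and 111 CPM in DT libraries 1 to 3 and 27.9, 18.2 and 116 CPM in saline libraries 1 to 3, so that its groups overlapped, and the call (adjusted p = 0.0403) was lost without DT library 1, DT library 2, saline library 1 or saline library 2 (adjusted p up to 0.158), with DESeq2 (adjusted p = 0.0796) and with no filter on low counts (adjusted p = 0.263). Zfp36, which promotes the decay of chemokine mRNA, rose (log2 1.36, SE 0.15, adjusted p = 0.00022), while its relative Zfp36l2 fell (14.9 ± 0.868 CPM in DT and 22.7 ± 5.34 CPM in saline; log2 -0.60, SE 0.20, adjusted p = 0.04997). The Zfp36l2 call was lost without any 1 of the 6 libraries (adjusted p = 0.0594 to 0.128). Il1b was too low to be tested, at 0.571 ± 0.239 CPM in DT and 0.127 ± 0.111 CPM in saline.

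Ccl2 was the ligand with the highest mean RPKM in both groups, and the genes with the profile most like its own over the 6 libraries were named. The measure was the root mean square difference of log2(CPM + 0.5), centred on the saline mean, over 13052 other named genes. It uses the same DT and saline values on which Ccl2 was chosen, so the likeness is a description only. Pglyrp2, an enzyme that cleaves bacterial peptidoglycan, came first (difference 0.592), with 32.2, 51.0 and 63.2 CPM in DT libraries 1 to 3 and 1.28, 0.0924 and 0.824 CPM in saline libraries 1 to 3. Acta2, smooth muscle actin, was next (0.637), with 23.1, 88.1 and 102 CPM in DT libraries 1 to 3 and 0.869, 0.601 and 1.13 CPM in saline libraries 1 to 3. Il18rap, a subunit of the interleukin 18 receptor, was the third (0.742), with 11.0, 19.3 and 16.2 CPM in DT libraries 1 to 3 and no read in the saline libraries. Pglyrp2 and Il18rap passed the filter on low counts only through the DT libraries.

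Marker lists of other cells that can make CC chemokines were summed in each library. A marker is said to have risen or fallen where it passed the edgeR test, as 17.2% and 11.9% of all genes tested did. The 6 T cell markers in the files summed to 12.4 to 21.8 CPM in DT libraries and 20.7 to 56.8 CPM in saline libraries. Cd3d, Cd3e and Cd3g fell (log2 -2.03, -1.27 and -1.75), while Cd247 (log2 -0.15), Il2rb and Thy1 did not pass. The groups of Cd3d and Cd3e overlapped, and Cd3d had come through the filter on low counts only by its saline libraries. The 9 macrophage and monocyte markers summed to 13.5 to 15.9 CPM in DT libraries and 14.003 to 25.9 CPM in saline libraries, and Fcer1g fell (log2 -1.68). Adgre1 had 0, 1 and 3 counts in DT libraries 1 to 3 and 70, 14 and 44 in saline libraries 1 to 3, and Itgam had 84, 93 and 48 counts in DT libraries 1 to 3 and 0, 12 and 11 in saline libraries 1 to 3. Both came through the filter only by the group in which they were high. Fcgr1 and Lyz2, of the same list, reached the filter's level in too few libraries to be tested. Fcgr1 had 9, 12 and 9 counts in DT libraries 1 to 3 and 0 in every saline library. Lyz2 had 7, 4 and 10 counts in DT libraries 1 to 3 and 44, 0 and 75 in saline libraries 1 to 3. The 5 Langerhans and dendritic markers summed to 101 to 124 CPM in DT libraries and 159 to 205 CPM in saline libraries, and H2-Ab1 and Cd74 fell (log2 -0.78 and -0.64). Most of that sum was Cd74, at 97.9 CPM in DT and 152 CPM in saline on average. Itgax, of the same list and too low to be tested, went the other way, with 12, 19 and 7 counts in DT libraries 1 to 3 and 0, 2 and 5 in saline libraries 1 to 3. The 5 neutrophil markers, with Ly6g and Elane at 0 in every library, reached at most 0.470 CPM in DT libraries and 0.130 CPM in saline libraries. The 6 mast cell markers, with Cpa3, Mcpt4, Tpsb2 and Fcer1a at 0 in every library, reached at most 0.201 CPM in DT libraries and 0.173 CPM in saline libraries. In the same libraries Ccl1, Ccl2, Ccl7 and Ccl20 summed to 243 to 320 CPM in DT and 3.74 to 8.41 CPM in saline. The 6 fibroblast markers, from cells that are also known to make Ccl2, summed to 9.46 to 16.9 CPM in DT libraries and 23.5 to 41.3 CPM in saline libraries. Most of that sum was Col1a2, which fell (log2 -1.22), at 12.3 CPM in DT and 28.8 CPM in saline on average. Col1a1 (log2 -0.85) did not pass. The 4 melanocyte markers summed to 7.18 to 9.81 CPM in DT libraries and 12.3 to 22.5 CPM in saline libraries. Most of that difference was Dct, which fell (log2 -2.86), at 1.21 CPM in DT and 8.93 CPM in saline on average. Pmel (log2 -0.31) did not pass, and Mlana, too low to be tested, averaged 0.223 CPM in DT and 0.194 CPM in saline. The 4 endothelial markers summed to 7.64 to 10.8 CPM in DT libraries and 3.004 to 21.8 CPM in saline libraries. Of the 7 bulge keratinocyte markers Krt14 rose (log2 1.78) and Lhx2 and Sox9 fell (log2 -1.09 and -0.71). The groups of Sox9 overlapped. The part of any of these cells in the chemokine levels was not tested.

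**Figure D5:**
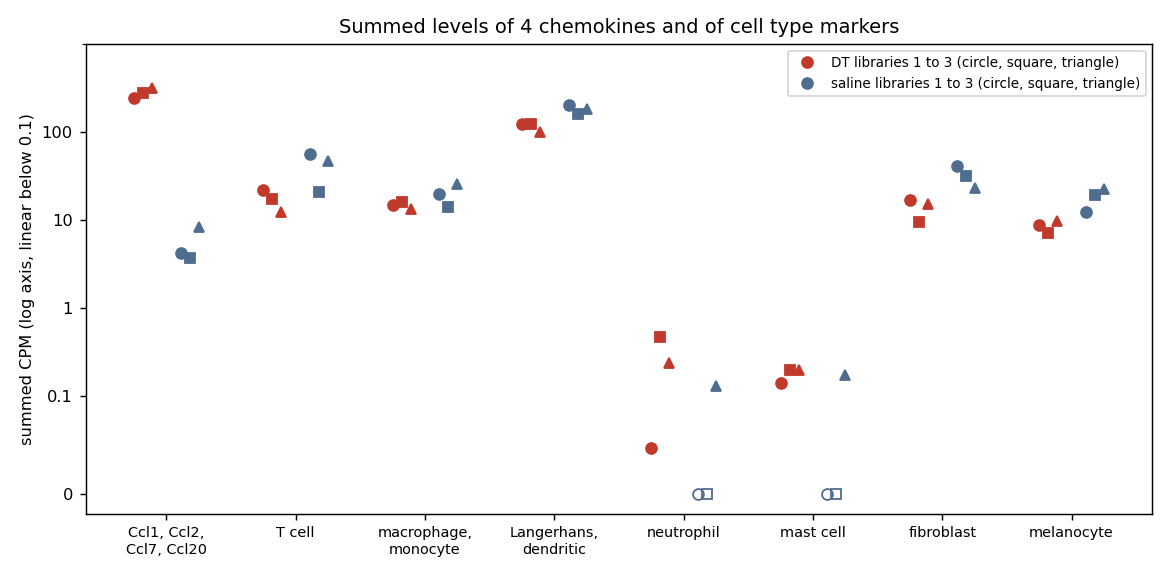
Summed CPM per library (y axis, log scale, linear below 0.1) of Ccl1, Ccl2, Ccl7 and Ccl20 and of marker lists of other cell types, DT libraries left of saline libraries, open symbols for 0. The chemokine sum is 243 to 320 CPM in DT and 3.74 to 8.41 CPM in saline, while the Langerhans, fibroblast and melanocyte sums of all DT libraries lie below those of all saline libraries and the T cell ranges overlap. The Langerhans sum is mostly Cd74, the fibroblast sum mostly Col1a2, and the melanocyte difference mostly Dct.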

How the data were processed

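RNA of cells sorted from skin was purified with a RNeasy Micro kit, per the labels' protocols, and reads were aligned with GSNAP to GRCm38, per the submitters' processing notes. Not given in the sources used here: aligner version, gene annotation and strand setting. The deposited count of a gene is its number of uniquely aligned reads, and the deposited RPKM is adjusted by the authors with a library size factor, both per the file headers. For every gene the RPKM differed from the count by a gene-specific value times 1 factor a library. Of 36528 Entrez identifiers 31049 matched a RefSeq symbol. The gene lists and the chosen ligands were set with earlier results of these data known.

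Counts were fitted with edgeR 4.0.16 (R 4.3.3; filterByExpr with minimum count 10 and minimum total 15, TMM, robust quasi-likelihood test, no covariates, Benjamini-Hochberg adjusted p under 0.05), which kept 15132 genes. The fit was tested on simulated data. Log2 differences run DT minus saline. Gene levels are TMM-scaled CPM or deposited RPKM, as mean ± SD of 3 libraries. Libraries were numbered in record order, and equal numbers do not pair them. Intervals and floors for low counts cover counting error only. Named were the 7 ligands, copies and neighbours of the ligands, and 3 genes by likeness to the top ligand. Of the other ligand, receptor and regulator lists, every gene that passed was named. Further genes of the lists were named by no fixed rule. Alternatives were DESeq2 1.42.0 and limma 3.58.1, other scalings, filters and pseudocounts, the identifier series as a block, and each library left out. Trac and Trdc, of the T cell list, were not matched.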

Additional observations from a re-analysis of the deposited data

How the results depend on the processing

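Ccl1, Ccl2, Ccl7 and Ccl20 kept their direction under every alternative run. Log2 fold changes on log2(RPKM + 1) were 4.46 for Ccl1, 4.19 for Ccl7 and 4.41 for Ccl20, a scale on which low values are compressed, and that of Ccl20 was 7.17 with limma-voom. Leaving out each library in turn gave 5.50 to 5.99 for Ccl1, 5.61 to 6.58 for Ccl2, 4.46 to 5.15 for Ccl7, 5.52 to 6.91 for Ccl20 and -0.12 to 0.17 for Ccl27a. By CPM, Ccl2 was number 2 and Ccl27a number 1 among the ligands in saline, and no other order changed. The count of other CC ligands that rose was 0 with no filter on low counts, with DESeq2, in the larger identifier series and without any 1 library (0 to 0), and the count that fell was 1 with no filter and 0 to 1 without a library. The count of receptors that fell was 2 with library size only, with no filter and with a mean count of at least 10, 0 in the larger series and 1 to 2 without a library. That of receptors that rose was 1 with limma-voom and on log2(RPKM + 1), and 0 to 1 without a library. The count of regulators that rose was 9 with DESeq2 and with no filter and 9 to 11 without a library, against 10. That of regulators that fell was 0 with a mean count of at least 10, limma-voom, either RPKM pseudocount, the identifier series as a block or the larger series, and 0 to 0 without a library. Over all genes 1097 rose and 473 fell in the larger series, and 1564 to 2826 rose and 996 to 2045 fell without a library. The counts moved by over 1.5 times without DT library 2 (1625 rose and 996 fell), DT library 3 (1564 rose and 1017 fell) and saline library 2 (1040 fell). Scaling by library size only turned the balance of all calls to 2099 that rose and 2317 that fell, moved the median over all tested genes to -0.11 in log2 and turned the sign of Ccl27a (-0.06). The cause of these differences was not tested. No paired analysis was possible because the labels carry no replicate numbers. The main fit had 3 libraries a group and 4 residual degrees of freedom. Ccl3, Ccl4, Ccr2, Ccr6 and Ccr8 did not pass its filter on low counts, Ccr2 because too few libraries reached the filter's level.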
